A study of Gallus gallus with 3 samples.

Results

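LIN28A, LIN28B, TRIM71, PRDM14, SALL4, TFAP2A, TFAP2C, OTX2 and ESRRB are RNA-binding proteins and transcription factors that accompany the core pluripotency network, and their expression was compared between cultured chicken (Gallus gallus) primordial germ cells (PGCs) and embryonic stem cells (ESCs). The 9 genes were chosen by name from the symbols in the deposited tables. All 9 were found, each with 1 Ensembl gene, among 19152 counted genes, and all 9 were among the 14489 that reached 10 counts in any library and entered the test. Total RNA was sequenced from 2 PGC libraries (replicates 2 and 3, here PGC rep2 and PGC rep3) and 1 ESC library (replicate 2). Per the study's methods, the PGCs were migratory cells grown in culture, and the ESCs were taken as the culture derivative of the early somatic embryo. The study's methods describe 3 PGC and 2 ESC replicates, all biological, of which only the libraries with a sample label were used here. The labels gave neither a treatment nor the sex, line or culture of any library. How independent the PGC libraries are is therefore not known here. With 1 labelled ESC library, the cell type and whatever was particular to that library cannot be told apart.

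LIN28 proteins bind the precursor of the let-7 microRNA and block its maturation in early embryos, whereas let-7 in differentiating cells represses LIN28 and TRIM71 transcripts. In the mouse, PRDM14 and TFAP2C are needed to specify PGCs, SALL4 is needed in embryonic stem cells and in germ cells, ESRRB maintains the naive pluripotent state, and OTX2 marks the later, primed state and restrains entry into the germline. These roles come from mammals unless stated otherwise, and birds set PGCs aside by inherited germ plasm instead of by induction.

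Counts assigned to genes totalled 19754278 and 20401551 in PGC rep2 and PGC rep3 and 20568106 in the ESC library, and expression is given as CPM (counts scaled to library size with TMM factors). A count of 3, up to which a count of 0 is compatible at 95% confidence, corresponded to 0.134 to 0.169 CPM. The PGC label was checked on germ cell markers, whereas no list of ESC markers was used to check the ESC label. All 7 matched markers (DAZL, DDX4, MAEL, PIWIL1, TDRD5, TDRD9 and MOV10L1) were higher in PGCs, with a summed level of 4593 and 4582 CPM in the PGC libraries against 90.9 CPM among ESCs. The mitochondrial share was 4.44%, 6.54% and 10.1% of counts, in the same order. The edgeR quasi-likelihood test takes its spread from the PGC libraries and assumes that the lone ESC library varies as they do. The spread of each gene is drawn towards a value shared over all genes.

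Of the 9 genes, 6 were lower in PGCs at an edgeR adjusted p under 0.05, namely LIN28A, LIN28B, TRIM71, SALL4, TFAP2A and TFAP2C. Over all genes the test called 41.7%, with 20.6% lower and 21.2% higher in PGCs. None of the 9 was called higher by edgeR or by DESeq2, and 3 (PRDM14, OTX2 and ESRRB) were called by neither. DESeq2 called 4 of the 6 lower genes, without LIN28A and SALL4, beside 16.5% of all genes given an adjusted p there. At an unadjusted edgeR p under 0.05 there were 7, the 6 lower genes and PRDM14, which was higher, beside 7467 of the 14489 genes tested. Taken library by library, the same 6 genes lay 2-fold or more below the ESC library in each PGC library, against 15.8% of all genes (TRIM71 only narrowly), and ESRRB alone lay as far above it in each, against 21.6%. The median log2 ratio over the 9 genes was −2.37 in PGC rep2 and −1.41 in PGC rep3, beside 0.02 and 0.03 over all genes tested. Both ratios share the ESC library.

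**Figure D1:**
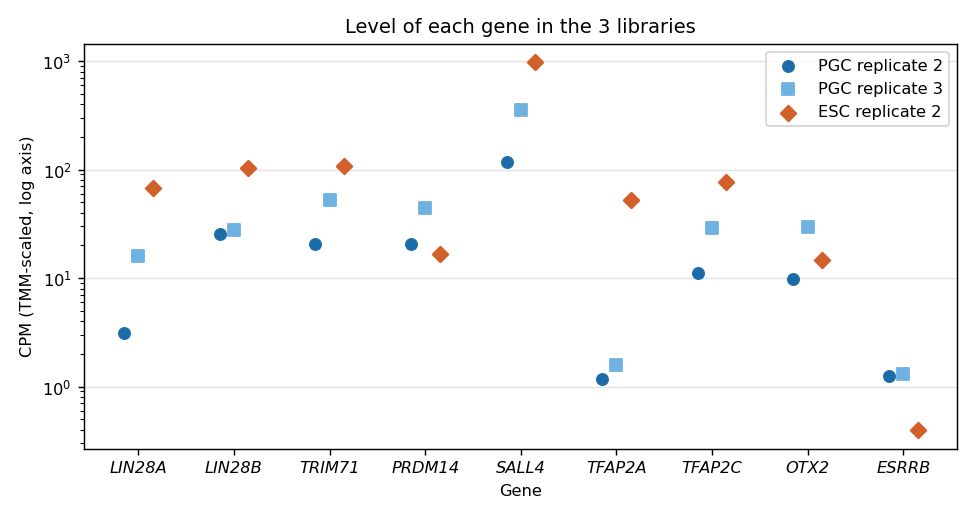
Level of each of the 9 genes in CPM on a log axis, with 1 point per library (dark circles for PGC rep2, light squares for PGC rep3, diamonds for ESC rep2). The ESC library lies above both PGC libraries for LIN28A, LIN28B, TRIM71, SALL4, TFAP2A and TFAP2C, below both for PRDM14 and ESRRB, and between them for OTX2.

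LIN28A (ENSGALG00000036022, chromosome 23, 175670 to 186981 on the minus strand of galGal5, 4 exon blocks) encodes the mainly cytoplasmic LIN28 protein, which in mammals recruits a uridylating enzyme to pre-let-7. It had 70, 334 and 1210 counts in PGC rep2, PGC rep3 and the ESC library, or 3.13, 16.0 and 68.1 CPM. The ESC library was the highest, and the PGC libraries lay 5.003-fold apart, and the exact 95% Poisson intervals of their counts did not meet (54.6 to 88.4 and 299 to 372, which cover counting error only). In edgeR the log2 fold change of LIN28A was −2.83 ± 0.62 (SE from the F statistic) with an adjusted p of 0.00544. LIN28A was 21.2-fold lower than the ESC library in PGC rep2 and 4.23-fold lower in PGC rep3. The call was lost in DESeq2, with an adjusted p of 0.180.

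LIN28B (ENSGALG00000026761, chromosome 3, 69096720 to 69176650, minus strand, 5 exon blocks), the paralog that in human cells can hold back let-7 precursors in the nucleus, had 564, 583 and 1831 counts in the same order. These were 25.2 and 28.0 CPM in the PGC libraries, which agreed closely, and 103 CPM in the ESC library. In edgeR its log2 fold change was −1.96 ± 0.23 (adjusted p 0.000207). LIN28B was 4.08-fold and 3.67-fold lower in PGC rep2 and PGC rep3.

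Per exon length, LIN28B exceeded LIN28A in every library. LIN28B was at 42.7, 41.0 and 117 TPM (counts divided by exon length and scaled to the library) in PGC rep2, PGC rep3 and the ESC library. LIN28A was at 4.75, 21.1 and 69.6 TPM. The ratio of LIN28B to LIN28A in TPM was thus 8.99, 1.95 and 1.69 in that order, so that the excess of LIN28B was large in PGC rep2 alone.

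TRIM71 (ENSGALG00000019622, chromosome 2, 40677658 to 40726319, minus strand), the vertebrate LIN-41, is a TRIM-NHL protein that binds messenger RNA and is itself a classical let-7 target. It had 459, 1092 and 1895 counts in PGC rep2, PGC rep3 and the ESC library, or 20.5, 52.4 and 107 CPM. All PGC values were below the ESC value, by 5.19-fold in rep2 and 2.03-fold in rep3. By edgeR this was −1.55 ± 0.42 as a log2 fold change, with an adjusted p of 0.0147.

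Genes that process or degrade let-7 were examined next to LIN28. Of 16 genes 13 were matched and tested, and 0 were higher in PGCs by edgeR, by DESeq2 or at an unadjusted edgeR p under 0.05. Lower were 3 by edgeR. DESeq2 called 4 lower, XPO5 among them, beside 16.5% of all genes given an adjusted p there. At an unadjusted edgeR p under 0.05 there were 5 lower, where 7467 of the 14489 genes tested had such a p in either direction. Over all genes tested edgeR called 21.2% higher and 20.6% lower, shares that also stand beside the counts of the lists below. The median log2 ratio was −0.31, beside 0.03 over all genes. HNRNPA1, an RNA-binding protein that acts on let-7 precursors, was 3.47-fold lower in the PGC mean, SYNCRIP, an RNA-binding protein, 2.99-fold, and DICER1, which cuts precursors to mature microRNAs, 1.92-fold. The edgeR adjusted p-values were 0.000970, 0.00241 and 0.0240. TUT4, the uridylating partner of LIN28A, had 143, 136 and 112 CPM in PGC rep2, PGC rep3 and the ESC library. DIS3L2, the exonuclease that degrades uridylated let-7 precursors, had 33.0, 35.8 and 29.3 CPM. Neither passed the test (adjusted p-values of 0.30 and 0.484).

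Of 21 genes known in mammals as targets of let-7 or, for EGR1 and CDKN1A, of TRIM71, all were tested. By edgeR 9 were lower in PGCs, 2 were higher and 10 did not pass, beside 20.6% lower and 21.2% higher over all genes. The median log2 ratio was −0.54. The list was compiled from general knowledge, and mature let-7 itself was not measured. MYC, the growth-promoting transcription factor, had 8, 27 and 2741 counts in PGC rep2, PGC rep3 and the ESC library, and its edgeR log2 fold change was −7.55 with an adjusted p of 4.66e-06. Its paralog MYCN had 69.0, 124 and 66.4 CPM and was not called (adjusted p 0.218). The chromatin protein gene HMGA2 was 5.18-fold lower in the PGC mean. The oncofetal RNA-binding protein genes IGF2BP1, IGF2BP2 and IGF2BP3 were also lower, with 36.0, 33.6 and 106 CPM for IGF2BP1 and 320, 439 and 1061 CPM for IGF2BP3 in the same order. Higher in PGCs were the immediate early gene EGR1, on the list as a TRIM71 target (2.13-fold), and the cell-cycle regulator E2F5 (1.69-fold), with edgeR adjusted p-values of 0.0110 and 0.0304.

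**Figure D2:**
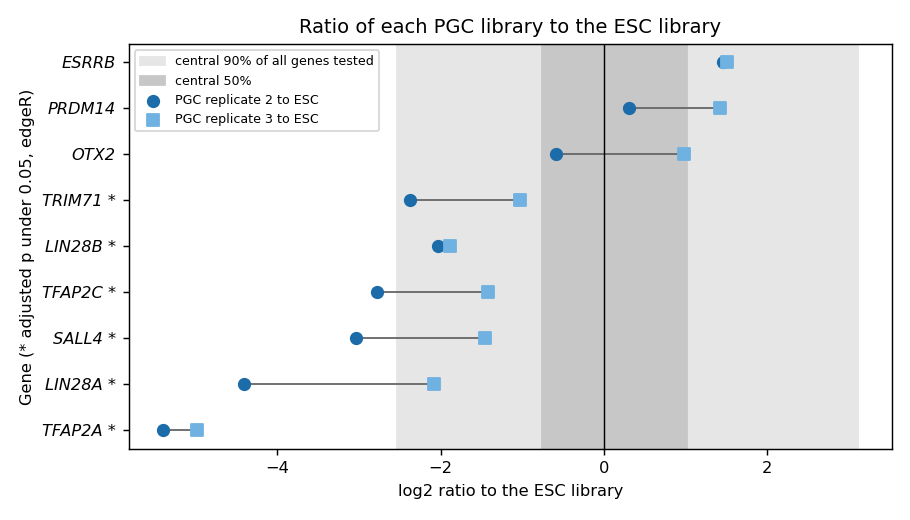
Log2 ratios to the ESC library for the 9 genes, ordered by their mean, with dark circles for PGC rep2 and light squares for PGC rep3. The shaded bands hold the central 90% (−2.53 to 3.11) and 50% (−0.75 to 1.02) of the mean ratio over all genes tested. Asterisks mark the 6 genes called by edgeR, all of which lie to the left of 0 in both libraries.

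PRDM14 (ENSGALG00000033439, chromosome 2, 116911619 to 116916354, minus strand) encodes a PR-domain zinc-finger protein that in mouse germ cells and stem cells opposes FGF signalling and DNA methylation. It had 458, 930 and 294 counts in PGC rep2, PGC rep3 and the ESC library. In CPM these were 20.5, 44.6 and 16.6, so both PGC libraries were above the ESC library, PGC rep2 by 1.23-fold and PGC rep3 by 2.69-fold. The spread between the PGC libraries (2.18-fold) was larger than the distance from PGC rep2 to the ESC library. The log2 fold change was 0.97 ± 0.42 with an edgeR adjusted p of 0.0880, which did not pass 0.05, although it passed (0.0130) when libraries were scaled by total counts alone. Per exon length PRDM14 was nevertheless the most abundant of the 9 genes in PGC rep2 (57.2 TPM) and the next after SALL4 in PGC rep3 (108 TPM), and the seventh in the ESC library (31.1 TPM). Its annotated model holds 816 exon bases, the shortest of the 9. Missing exons would change the TPM of this or any other of the 9 genes, and whether exons are missing was not tested.

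Among partners of PRDM14 and other factors of mammalian PGC specification, 11 of 14 genes were matched and 10 tested. Of these 2 were higher in PGCs, 3 were lower and 5 did not pass, beside 21.2% higher and 20.6% lower over all genes. KIT, the receptor for stem cell factor on migrating germ cells, had 172, 142 and 6.25 CPM in PGC rep2, PGC rep3 and the ESC library (edgeR adjusted p 8.31e-06). SOX17, which specifies PGCs in human cells, was called higher but rested on 18, 10 and 0 counts. The PGC mean was 3.80-fold above the floor of 3 counts in the ESC library, leaving aside counting error in the PGC libraries. DESeq2 did not call SOX17 (adjusted p 0.105). BMP4, the ligand that induces mouse PGCs, had 0.759, 0.720 and 36.6 CPM, and the T-box factor gene EOMES had 22.4, 45.0 and 227 CPM, both lower in PGCs. CBFA2T2, the corepressor that binds PRDM14 in the mouse, had 199, 312 and 338 counts and was not called (adjusted p 0.163). Of the Polycomb subunits, EZH2 was lower (adjusted p 0.0390), whereas EED and SUZ12 had adjusted p-values of 0.946 and 0.194.

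The remaining PRDM family had 8 of 15 listed names matched and 7 tested. PRDM3, another name of MECOM, was among the unmatched names. By edgeR 3 were higher in PGCs, beside 21.2% of all genes, among them PRDM16 (5.81, 4.08 and 0.282 CPM) and MECOM (13.9, 24.1 and 3.10 CPM), and 4 were not called. DESeq2 called 3 higher, and 4 were higher at an unadjusted edgeR p under 0.05. Lower were 0 by edgeR (beside 20.6% of all genes), by DESeq2 or at an unadjusted p under 0.05. The median log2 ratio was 1.31. PRDM16 and MECOM are close relatives that carry a PR domain and zinc fingers. PRDM1, the BLIMP1 gene, found no match by symbol and was not analysed here.

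SALL4 (ENSGALG00000041365, chromosome 20, 13306172 to 13320343, plus strand) encodes a zinc-finger protein that in the mouse recruits the NuRD deacetylase complex. It was the most highly counted of the 9 genes, with 2650, 7352 and 17253 counts in PGC rep2, PGC rep3 and the ESC library. The values were 118, 353 and 972 CPM, each library being well apart from the next. SALL4 was 8.20-fold lower than the ESC library in PGC rep2 and 2.75-fold lower in PGC rep3. Its log2 fold change of −2.04 ± 0.49 had an edgeR adjusted p of 0.00835, and DESeq2 did not call it (adjusted p 0.192). SALL4 was nevertheless above 71.7%, 90.8% and 97.0% of tested genes in TPM in the respective libraries.

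The SALL paralogs went in different directions. SALL1 had 14.2, 20.1 and 394 CPM in PGC rep2, PGC rep3 and the ESC library and was 23.2-fold lower in the PGC mean (edgeR adjusted p 4.50e-06). SALL3 had 24.9, 26.5 and 7.88 CPM and was 3.23-fold higher (adjusted p 0.00215). Of the NuRD complex, the deacetylase gene HDAC1 (3.14-fold) and the histone chaperone gene RBBP4 (2.30-fold) were lower in PGCs. HDAC2, MTA1, MTA3, RBBP7, MBD3 and GATAD2A were not called, with adjusted p-values of 0.198 to 0.998. In the SALL and NuRD list as a whole 10 of 16 genes were tested, 1 was higher and 3 were lower, beside 21.2% and 20.6% of all genes. The list median log2 ratio was −0.44.

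TFAP2A (ENSGALG00000012775, chromosome 2, 63495555 to 63509044, plus strand, 7 exon blocks) encodes AP-2 alpha, a transcription factor of the surface ectoderm and neural crest. It differed most among the 9 genes, with 26, 33 and 938 counts in PGC rep2, PGC rep3 and the ESC library. This was 1.16 and 1.58 CPM in the PGC libraries, the Poisson intervals of whose counts overlap (17.0 to 38.1 and 22.7 to 46.3), and 52.8 CPM in the ESC library. EdgeR gave a log2 fold change of −5.26 ± 0.33 with an adjusted p of 5.10e-06, and 0.787% of tested genes had a lower mean log2 ratio. Most tested markers of non-neural ectoderm and neural crest were also lower in PGCs. Of 12 such genes 11 were matched and 8 tested, while GATA3, DLX3 and DLX6 had too few counts. Lower were 6 (GATA2, DLX5, MSX1, MSX2, SOX10 and PAX7), beside 20.6% of all genes, and 1 was higher (TP63). FOXD3 was not called, with a mean log2 ratio of 0.84. DESeq2 did not call MSX2 and SOX10 (adjusted p-values of 0.0552 and 0.0592). The summed level of the list was 26.2, 22.3 and 238 CPM in the same order. MSX1 (139 CPM) and GATA2 (75.5 CPM) made up most of the ESC sum, and TP63 (22.1 and 16.5 CPM) most of the PGC sums. PAX7 was at 0 counts in PGC rep3. Their part in the result was not tested, and fewer cells of a type and less RNA per cell cannot be told apart in bulk RNA.

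TFAP2C (ENSGALG00000007690, chromosome 20, 12148972 to 12156390, minus strand, 7 exon blocks) encodes AP-2 gamma, which acts early in mouse and human PGCs. It had 249, 601 and 1368 counts, or 11.1, 28.9 and 77.0 CPM, in PGC rep2, PGC rep3 and the ESC library. The ESC library was again the highest, by 6.88-fold over PGC rep2 and 2.66-fold over PGC rep3. EdgeR gave a log2 fold change of −1.95 ± 0.42 with an adjusted p of 0.00528. TFAP2C and SALL4 both lie on chromosome 20, while TRIM71, PRDM14 and TFAP2A share chromosome 2, and OTX2 and ESRRB share chromosome 5. A link between position and level was not tested.

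Per exon length TFAP2C was the highest of the matched AP-2 genes in every library, while TFAP2D found no match and was not analysed here. It exceeded TFAP2A 13.1-fold in PGC rep2 and 24.9-fold in PGC rep3 in TPM, and 1.99-fold in the ESC library. TFAP2B, another AP-2 gene of the neural crest, had 0, 0 and 37 counts, which puts it at least 15-fold lower in PGCs against the mean floor of 3 counts per library. TFAP2E had 2, 1 and 15 counts and was also called lower (edgeR adjusted p 0.0349), with no adjusted p in DESeq2. None of the other 7 genes of the AP-2 list, which encode CITED and KCTD cofactors, WWOX and the acetyltransferases EP300 and CREBBP, was called by edgeR or DESeq2 or had an unadjusted p under 0.05, and the edgeR adjusted p-values were 0.126 to 0.822.

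**Figure D3:**
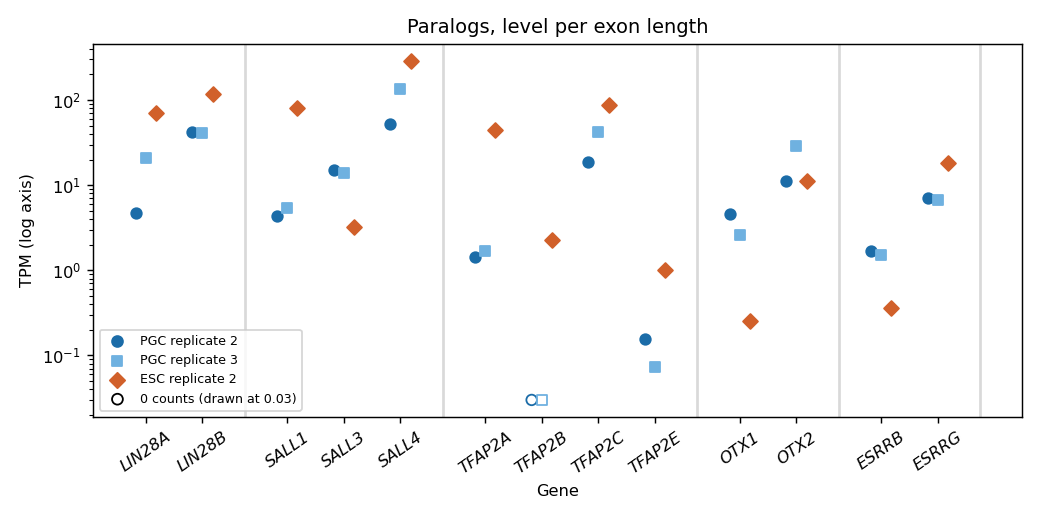
Levels of the LIN28, SALL, AP-2, OTX and estrogen-related receptor genes in TPM on a log axis, with 1 point per library (dark circles for PGC rep2, light squares for PGC rep3, diamonds for ESC rep2). Open symbols at 0.03 stand for 0 counts, seen for TFAP2B in both PGC libraries. LIN28B lies above LIN28A and TFAP2C above the other AP-2 genes shown in every library, and SALL3, OTX1 and ESRRB lie lower in the ESC library than in both PGC libraries.

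OTX2 (ENSGALG00000034889, chromosome 5, 55922636 to 55929314, plus strand) encodes a homeodomain factor of the anterior embryo. It had 220, 610 and 262 counts, or 9.83, 29.3 and 14.8 CPM, in PGC rep2, PGC rep3 and the ESC library. The ESC library lay between the PGC libraries, as it did for 10.1% of all genes. The log2 ratio was −0.58 in PGC rep2 and 0.98 in PGC rep3, and the log2 fold change of 0.40 ± 0.52 did not pass the test (edgeR adjusted p 0.554). The difference between the cell types therefore did not exceed the spread between the PGC libraries. Anterior neural markers had a summed level of 13.4, 13.3 and 9.12 CPM in the same order, with 7 of 8 genes tested. By edgeR 1 was higher (LHX2) and 1 lower (NEUROG2, not called by DESeq2, adjusted p 0.157), beside 21.2% and 20.6% of all genes. SIX3 was at 0 counts in the ESC library.

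Genes of the primed state in the mouse moved both ways. Of 14 genes 11 were matched and tested. By edgeR 3 were higher in PGCs and 4 were lower, beside 21.2% and 20.6% of all genes. The median log2 ratio was −0.18. The paralog OTX1 (46, 28 and 3 counts), the neural-type POU gene POU3F1 (32, 25 and 0 counts) and the zinc-finger gene ZIC2 (101, 171 and 27 counts) were higher. POU3F1 was at least 7.78-fold higher in the PGC mean against the floor of 3 counts in the ESC library. ETV5, an FGF-responsive ETS factor gene, was lower with 8.53, 23.8 and 50.7 CPM. LEF1 and LEFTY2 were also lower. DESeq2 did not call OTX1 and LEFTY2 (adjusted p-values of 0.0757 and 0.118). DNMT3B, a de novo DNA methyltransferase gene that marks the primed state, was not called (adjusted p 0.248).

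ESRRB (ENSGALG00000041775, chromosome 5, 38681505 to 38799468, plus strand) encodes an orphan nuclear receptor. It was at the edge of detection, with 28, 27 and 7 counts in PGC rep2, PGC rep3 and the ESC library, or 1.25, 1.296 and 0.394 CPM. The PGC libraries were nearly equal, and both were 2.74-fold to 2.83-fold above the ESC library. The log2 fold change was 1.68 ± 0.83 and did not pass the test (edgeR adjusted p 0.127). Counting error alone allowed a log2 difference of 0.55 to 3.07 (exact 95% binomial interval). ESRRB was above 14.0%, 15.2% and 9.82% of tested genes in TPM.

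Among the estrogen-related receptors and factors of the mouse naive state, 10 of 15 genes were matched and tested. By edgeR 2 were higher in PGCs and 2 were lower, beside 21.2% and 20.6% of all genes, with a median log2 ratio of 0.10. ESRRG, a paralog of ESRRB, had 6.30, 6.77 and 24.2 CPM and was 3.67-fold lower in the PGC mean (edgeR adjusted p 0.00144). TFCP2L1, a naive-state transcription factor gene, had 20.8, 10.3 and 1.69 CPM and was 8.26-fold higher. The nuclear receptor gene NR5A2 had 3.71, 8.11 and 0.451 CPM and was also higher. TBX3 was lower on 0, 1 and 38 counts.

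**Figure D4:**
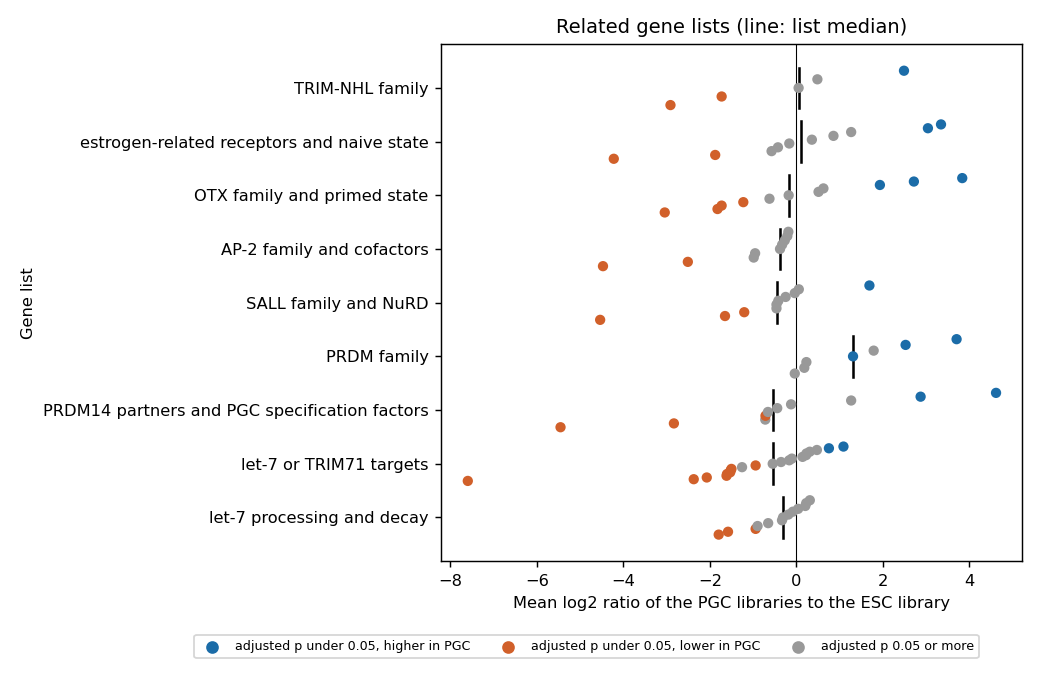
Mean log2 ratio of the PGC libraries to the ESC library for each tested gene of 9 related lists, 1 point per gene, with the list median as a line. Points are coloured by the edgeR call. Called genes lie on both sides of 0 in 6 lists. They lie only to the left in the let-7 processing list (3 of 13 genes) and the AP-2 list (2 of 9). They lie only to the right in the PRDM family (3 of 7), whose median was 1.31. Over all genes edgeR called 20.6% lower and 21.2% higher.

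The order of the 9 genes per exon length also differed between libraries. In the ESC library the order was SALL4, LIN28B, TFAP2C, LIN28A, TRIM71, TFAP2A, PRDM14, OTX2 and ESRRB, from 288 to 0.356 TPM. In PGC rep3 it was SALL4, PRDM14, TFAP2C, LIN28B, TRIM71, OTX2, LIN28A, TFAP2A and ESRRB, from 135 to 1.51 TPM. In PGC rep2 PRDM14 came before SALL4, LIN28B before TFAP2C and ESRRB before TFAP2A. SALL4 and PRDM14 lay 1.09-fold apart in PGC rep2 and 1.25-fold apart in PGC rep3, less than either gene differed between these libraries. LIN28B and TFAP2C lay 2.27-fold and 1.03-fold apart, and ESRRB and TFAP2A 1.17-fold and 1.13-fold on at most 33 counts, too few to order them.

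The PGC libraries differed from each other for most of the 9 genes. All 9 were higher in PGC rep3 than in PGC rep2, against 49.4% of all genes tested. For 6 of the 9 the difference was at least 2-fold, against 4.13% of all genes, and 4.72% of all genes were as far below. LIN28A was 5.003-fold higher in PGC rep3, SALL4 2.98-fold, OTX2 2.96-fold, TFAP2C 2.58-fold, TRIM71 2.55-fold and PRDM14 2.18-fold. TFAP2A (1.34-fold), LIN28B (1.11-fold) and ESRRB (1.03-fold) differed less. For the 6 genes called lower in PGCs, PGC rep3 lay between PGC rep2 and the ESC library, a position held by 56.5% of all genes. Among all genes called lower, 66.7% were higher in PGC rep3 and 5.61% at least 2-fold so, beside 4 of these 6 genes (LIN28A, TRIM71, SALL4 and TFAP2C). The median difference over the 9 genes was 1.35 on the log2 scale, beside 0.00 over all genes. This comparison has 1 library on each side and no test.

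Marker lists were compared between the PGC libraries. The summed level of germ cell markers was 4593 and 4582 CPM in PGC rep2 and PGC rep3, but the sum rested mainly on DAZL and DDX4, which were higher in PGC rep3, while the other 5 (MAEL, PIWIL1, TDRD5, TDRD9 and MOV10L1) were lower and the list median of PGC rep3 minus PGC rep2 was −0.45 on the log2 scale. The summed level of the anterior neural list was 13.4 and 13.3 CPM, and that of non-neural ectoderm and neural crest 26.2 and 22.3 CPM. The 4 matched erythroid and blood genes summed to 29.2 and 31.7 CPM, mainly from ALAS2 and PTPRC. At least 2-fold higher in PGC rep3 were SIX3 (anterior neural, 4 and 15 counts) and FOXD3 (neural crest, 7 and 29 counts). So were the blood genes HBBR (4 and 15 counts) and TAL1 (0 and 4 counts), with a blood list median difference of 0.86 on the log2 scale. These genes rest on few counts, 0 genes of these lists were as far below, and 4.13% of all genes were as far above. Fibroblast and mesenchyme genes, 7 tested of 9, summed to 631 and 740 CPM, of which COL1A2, a type I collagen gene, was at 51.4 and 327 CPM and COL3A1, a type III collagen gene, at 570 and 402 CPM. The ESC library had 72.8 CPM for that list, but the members went both ways between the cell types. By edgeR 3 were higher in PGCs (COL1A2, COL3A1 and PRRX1), beside 21.2% of all genes, and 3 were lower (POSTN, THY1 and DCN), beside 20.6%. DESeq2 did not call COL1A2 (adjusted p 0.355). The list median log2 ratio was −0.61. DCN, a matrix proteoglycan gene, had 1, 5 and 123 counts in PGC rep2, PGC rep3 and the ESC library, and LUM, a related gene, had 22, 55 and 45. The mitochondrial share was higher in PGC rep3 than in PGC rep2 (6.54% against 4.44%). The part of COL1A2 and of the mitochondrial share in the difference was not tested. The study's methods give alternative sequencing instruments, providers and read lengths for its RNA libraries. The sample titles do not say which applied to each library. Their part in this comparison, or in that of the cell types, was not tested.

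**Figure D5:**
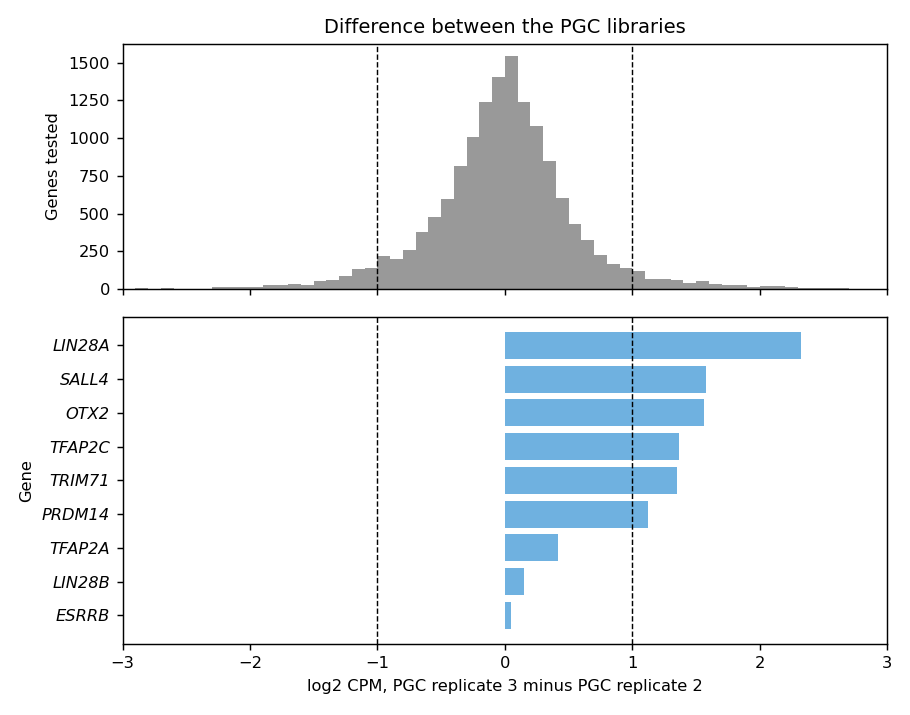
Top, histogram of the log2 CPM of PGC rep3 minus PGC rep2 over the genes tested, in bins of equal width, with 30 genes outside the axis. Bottom, the same difference for each of the 9 genes. Dashed lines mark a 2-fold difference, which LIN28A, SALL4, OTX2, TFAP2C, TRIM71 and PRDM14 exceed on the right.

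The genes whose levels were most like the outermost members were found by the Euclidean distance of log2 CPM over the 3 libraries, among genes with a symbol and a mean of at least 10 CPM. Nearest to TFAP2A, the lowest in the mean log2 ratio, were WNT5A at a distance of 0.31, CCDC80 at 0.56 and AIFM3 at 0.74. WNT5A, a secreted WNT ligand gene, had 29, 30 and 1107 counts in PGC rep2, PGC rep3 and the ESC library. For ESRRB, the highest in the mean log2 ratio, the 3 nearest lay at 4.86 to 5.09, FAP and MUC6 among them, which is far, since ESRRB itself was below the level required of its neighbours. With 3 libraries such a likeness is a description.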

How the data were processed

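RNA-seq of 3 chicken libraries was analysed, with groups and replicate numbers taken from the sample titles. Per the study's methods, the authors aligned reads with TopHat and Bowtie 2 to Ensembl gene transcripts of galGal5 and counted them with featureCounts. The deposited counts are whole numbers per gene, and the strand setting and the versions of these tools are not given in the sources used here. None of the 9 genes shares exon bases with another gene in the count table. Both tables also carry columns named for replicate 1 of each cell type (4 columns of per-sample values), which match no labelled sample and were not analysed here, so that 1 ESC library remains. The authors' normalized signal equals the deposited count divided by 1 size factor per library in 100.0% of values (relative tolerance 1e-06), and edgeR on the recovered reads called 3069 genes higher and 2979 lower. The authors' table also holds fold changes and p-values of their own comparison, which were not used.

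Genes with at least 10 counts in a library (14489, with 4663 removed) were scaled by TMM and tested with the quasi-likelihood test of edgeR 4.0.16 in R 4.3.3, with Benjamini-Hochberg adjustment over all of them. The fit had 1 residual degree of freedom beside a median of 8.92 prior degrees of freedom. The edgeR SE and p-value of a gene therefore drew mostly on a spread shared over all genes, less on its own. For LIN28A and SALL4 the SE was 0.62 and 0.49 in edgeR and 1.66 and 1.23 in DESeq2. The p-values cover only variation between these samples. DESeq2 1.42.0 was an alternative. A log2 ratio is a difference of log2 CPM (prior count 2) from the ESC library, and a fold in the PGC mean is 2 to the power of the mean ratio, while edgeR pools the PGC libraries. TPM used the deposited exon length over tested genes. The fit was tested on simulated data with the same dispersion for every gene and far fewer changed genes than were called here. That setting differs from these data, so it cannot show how well the p-values hold for them. Members and lists were chosen with earlier results of these data known. Named genes are the 9 members, the called genes of each related list with the largest change and those tied to a member, and the 3 nearest genes of the outermost members. Of 127 list entries 98 were matched by symbol, or by synonym in a RefSeq table of GRCg7b, and 38 of 47 marker entries. Some genes that the rule would name are not reported here. No sequences are shown.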

Additional observations from a re-analysis of the deposited data

How the results depend on the processing

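The 6 genes called lower in PGCs stayed negative under every scaling, filter and test tried. With 1 ESC library no setting could leave that library out. No paired analysis was possible because the groups share only replicate number 2. By total counts the median of all genes rose from 0.03 to 0.34 on the log2 scale (TPM 0.49), 1 member, PRDM14, was called higher in place of 0, and 70.2% of genes at least 2-fold apart were higher (TPM 74.7%, TMM 57.7%). DESeq2 called 4 members lower, without LIN28A (−2.84) and SALL4 (−2.06), beside 16.5% of all genes given an adjusted p there. Of 94 related genes it lost 3 calls, gained XPO5 and gave TFAP2E no adjusted p. An adjusted p under 0.01 left 1766 genes higher and 1730 lower in place of 3069 and 2979, and lost TRIM71. Genes at least 2-fold apart in both PGC libraries numbered 3124 higher and 2293 lower. They became 1948 and 1486 with at least 100 counts in a library, which removed ESRRB and left 0 members higher, 1453 lower under TPM, and 1491 and 859 at 4-fold, with 0 members higher and 2 lower. With 1 PGC library left out, 1 to 2 members were at least 2-fold higher and 6 lower. These are the ratios of the PGC library that was kept, and no test was refitted. The 6 were already 2-fold lower in each library, so leaving 1 out could not change them. The reads recovered from the deposited normalized values, an alternative chosen after seeing the data, are the same counts and so gave the same calls. TRIM71 was no longer 2-fold lower in PGC replicate 3, leaving 5 members lower, by total counts, TPM and at least 100 counts in a library. ESRRB rests on 7 to 28 counts per library.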

Other observations

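Genes of the related lists that differed between the PGC libraries were looked at after their values had been seen. Of 94 related genes tested, 8 were at least 2-fold higher and 3 at least 2-fold lower in PGC replicate 3 than in PGC replicate 2, where 4.13% and 4.72% of all genes were. Among the higher were the FGF-responsive ETS factor genes ETV4 (16.7 to 36.8 CPM) and ETV5 (8.53 to 23.8 CPM), the Polycomb gene EED (49.5 to 99.7 CPM), EOMES (22.4 to 45.0 CPM), NR5A2 (3.71 to 8.11 CPM), CITED4 (3.26 to 6.77 CPM) and MYC (8 to 27 counts). Lower were the naive-state gene TFCP2L1 (20.8 to 10.3 CPM), TRIM3 (10.5 to 4.51 CPM) and LEFTY2 (5 to 1 counts). With 1 library on each side these values have no test.

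Other TRIM genes were listed beside TRIM71. All 5 were tested, of which TRIM56 was matched by synonym. By edgeR 1 was higher in PGCs and 2 were lower, beside 21.2% and 20.6% of all genes. TRIM2 was higher in PGCs (21.6, 13.3 and 2.93 CPM in PGC replicate 2, PGC replicate 3 and the ESC library, edgeR adjusted p 0.00169). Lower were TRIM56 (3.22, 4.66 and 29.7 CPM, edgeR adjusted p 0.000208) and TRIM3 (10.5, 4.51 and 23.0 CPM, adjusted p 0.0159). TRIM32 and TRIM45 were not called.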
